A study of Mus musculus with 11 samples.

Results

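The retinal pigment epithelium (RPE) is held in its differentiated state by a small set of transcription factors, and 7 of them, Mitf, Otx2, Tfec, Sox9, Pax6, Lhx2 and Myrf, were followed in RPE/choroidal samples of mice after nanosecond laser treatment. They were chosen by gene name. Of the 7, 6 were among the 14602 genes of the count table, where Myrf is listed under its older symbol Gm98. Tfec, a relative of Mitf, was not listed under its own or its older symbol, and none of the 11 files of assembled transcripts held a segment at its locus on chromosome 6 (chr6:16833373-16898441, minus strand).

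The data were RNA-seq libraries of RPE/choroid from C57BL/6J mice, with 6 naïve control and 5 laser treated samples. The 2RT nanosecond laser was applied when mice were 9 months old, samples were taken 3 months later, and control mice were left untreated until the same age of 12 months. Tissue came from posterior eye cups freed of neural retina, total RNA of all samples was pre-amplified, and the labels name no transgene or mutant allele. Libraries held 25700881 to 36766020 counts in the naïve control group and 32094560 to 38755994 in the laser treated group.

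Each of these factors has a known place in the pigment epithelium. Mitf is a basic helix-loop-helix leucine zipper protein that switches on melanin synthesis genes, and Otx2, a homeodomain protein, acts with it. Sox9, an HMG box protein, and the LIM homeodomain protein Lhx2 act with Otx2 on genes of the visual cycle, the enzymes that regenerate the visual chromophore. Pax6, a paired box and homeodomain protein, is a regulator of eye formation that in the adult eye is abundant in amacrine cells, ganglion cells and the ciliary epithelium. Myrf is a membrane-bound factor that cleaves itself to release its DNA-binding part, and it is known for driving myelin genes in oligodendrocytes as well as for its role in the RPE.

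Per kilobase of transcript, Otx2 was the most abundant of the 6 factors and Pax6 the least. Reads were scaled to the library total (CPM) and then to transcript length (RPKM). Mean levels over the 11 libraries were 157 ± 22.4 RPKM for Otx2, 62.9 ± 9.23 for Sox9, 35.7 ± 7.25 for Lhx2, 29.7 ± 7.40 for Gm98, 13.0 ± 3.30 for Mitf and 8.68 ± 5.90 for Pax6 (SD, n = 11). Otx2 was above Sox9, Sox9 above Lhx2, and Gm98 above Mitf in all 11 libraries. Neighbours whose order was not the same in every library were Lhx2 and Gm98, with Lhx2 higher in 9 of 11, and Mitf and Pax6, with Mitf higher in 8 of 11. In all but Sox9, assembled reads were far denser on the last exon than on the first, so this order depends on coverage. By the last exon alone, in TPM (the length-scaled unit of the assembled transcripts), 2 places in the order of means were reversed. Pax6 was above Mitf (21.8 against 13.05 in naïve control, 16.0 against 10.15 in laser treated samples). Lhx2 was above Sox9 (73.35 against 51.7 and 71.26 against 57.0). Levels are otherwise compared between genes on the RPKM scale only, and all values that follow are CPM within a gene.

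Myrf, higher after laser treatment, and Mitf, lower, lay farthest from the naïve control level relative to their spread, but no factor passed the test across all genes. In edgeR (quasi-likelihood F test, p-values adjusted by Benjamini and Hochberg), 0 of the 6 factors had an adjusted p under 0.05, as had 0 of all 14602 genes (0%), the smallest adjusted p of any gene being 0.061. At an unadjusted p under 0.05, 2 of the 6 passed, Gm98 and Mitf, against 2325 of 14602 genes (15.9%). DESeq2 gave an adjusted p under 0.05 to 1 of the 6, Gm98, and to 502 of 14602 genes (3.44%), leaving 7090 genes without an adjusted p. In 1 of the 6, again Gm98, naïve control and laser treated CPM ranges were separate, which held for 330 of all genes (2.26%). By direction alone, 4 of the 6 had a higher mean after laser treatment, as had 48.5% of all genes, whose median log2 fold change was -0.019. In bulk RPE/choroid, fewer cells of a type cannot be told apart from less RNA per cell.

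**Figure D1:**
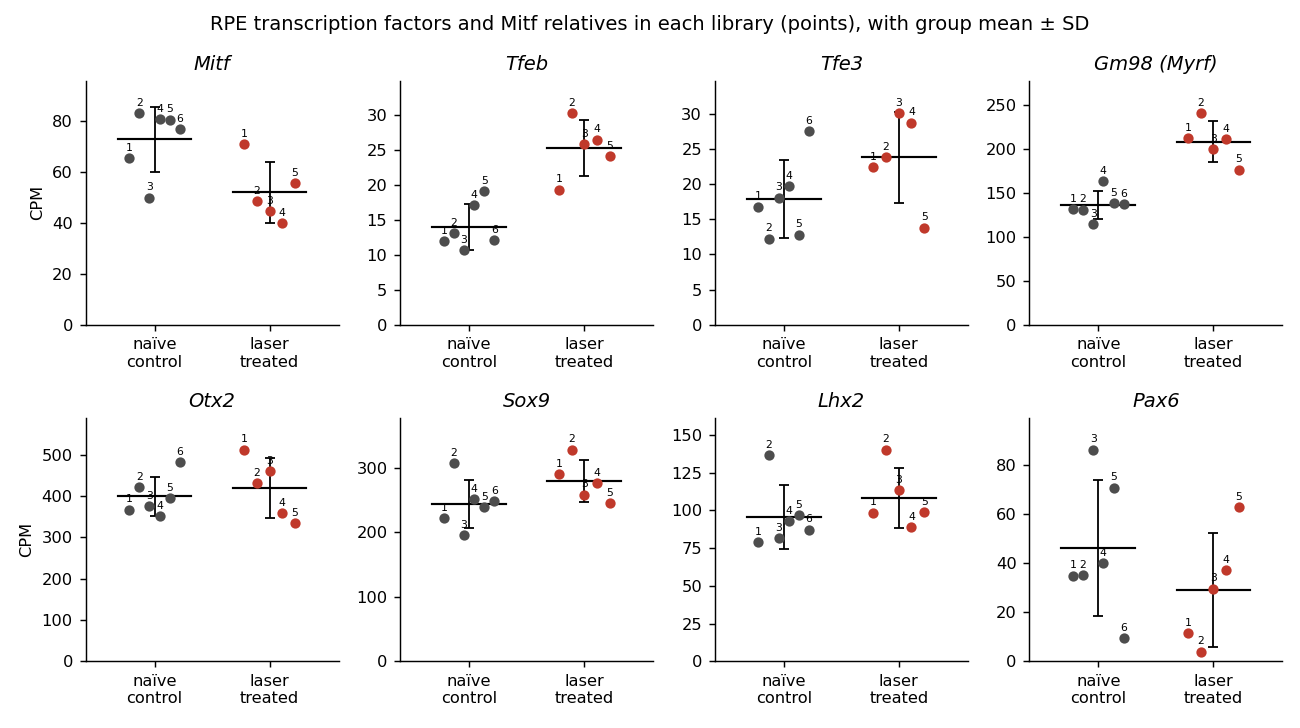
CPM of the 6 listed factors and of the Mitf relatives Tfeb and Tfe3 in each naïve control (grey) and laser treated (red) library, numbered by replicate, with the group mean as a line and its SD as a bar on a linear axis from 0. The groups do not overlap for Gm98 (114 to 163 against 176 to 241 CPM) or Tfeb (10.7 to 19.1 against 19.3 to 30.3 CPM) and overlap for the other 6 genes.

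Mitf lies on chromosome 6 (chr6:97807052-98021349, plus strand, GRCm38, GENCODE M21). Naïve control libraries held 50 CPM at the lowest, 78.8 at the median and 83.3 at the highest, and laser treated libraries 1 to 5 held 70.9, 48.7, 44.8, 40.1 and 55.6 CPM. Laser treated 1 lay within the control range, as did laser treated 5, and naïve control 3 lay among the laser treated values. Group means with their SD were 72.9 ± 12.9 CPM (n = 6) and 52.0 ± 12.0 CPM (n = 5), a log2 fold change of -0.49 with a standard error (SE) of 0.18. Here and below, means are given ± SD and log2 fold changes with their SE. The unadjusted p was 0.0158 and the adjusted p 0.22 in edgeR, and DESeq2 gave an adjusted p of 0.0943.

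Photoreceptor transcripts were present in every library, at levels that varied between libraries. Summed CPM of 15 of 15 photoreceptor markers ran from 7264 to 29150 in naïve control and from 5263 to 21780 in laser treated libraries, with none of the markers at 0 in any library. The lowest Mitf value of the control group stood in naïve control 3, with 29150 CPM of photoreceptor markers, and the lowest of the laser treated group in library 4, with 21780 CPM, although by mean log2 CPM of the markers library 3 (9.30) was slightly above library 4 (9.25). Laser treated 2, however, had 48.7 CPM of Mitf and 6472 CPM of photoreceptor markers. Over the 11 libraries, Mitf and the photoreceptor marker level had Pearson's r = -0.36 (permutation p = 0.273, adjusted 0.646). Spearman's rho was -0.23 (permutation p = 0.501, adjusted 0.867). Within naïve control r was -0.83 (n = 6) and within laser treated libraries -0.81 (n = 5). With the level of that list as a covariate, the log2 fold change of Mitf was -0.64 (SE 0.14, adjusted p = 0.185 from edgeR).

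The relatives of Mitf, with which it can form dimers, had higher rather than lower means after laser treatment. Tfeb, a regulator of lysosome genes, had 10.7 CPM at the lowest, 12.6 at the median and 19.1 at the highest in naïve control libraries, and 19.3, 30.3, 25.9, 26.5 and 24.1 CPM in laser treated libraries 1 to 5. Every laser treated library was above every naïve control library, the closest being laser treated 1. Its log2 fold change was 0.85 (SE 0.20, adjusted p = 0.172 from edgeR and 0.0152 from DESeq2). Tfe3, which acts with Tfeb on lysosome genes, had 17.9 ± 5.57 CPM (n = 6) and 23.8 ± 6.45 CPM (n = 5) with overlapping groups, a log2 fold change of 0.41 (SE 0.25, adjusted p = 0.459 from edgeR). Of the 3 listed family members, 2 were higher and 1 lower, 1 of each at an unadjusted p under 0.05, and the median log2 fold change was 0.41.

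The sequences through which Mitf and Otx2 are known to act were looked for in RefSeq promoter windows (GRCm38.p6) that run from 250 bases before to 50 bases after each listed start. The E-box CATGTG, searched on both strands, was present in a window of 6 of the 8 pigment genes and 4 of the 11 visual cycle genes that had one. Some genes have several windows. Counted by window it was in 7 of 10 and 4 of 15, against 14.2% of all 32851 windows. The OTX core GGATTA, also on both strands, was present in 3 of those 8 and 3 of those 11 genes. By window it was in 3 of 10 and 3 of 15, against 7.06% of all windows. The E-box CACGTG stood in 2 of the 8 pigment genes, by window 2 of 10 (7.15% of all windows). The SOX core ATTGTT stood in none of either list (10.7% of all windows). A match says only that the letters are present. The 250 bases before the start are shown for 3 pigment genes, for Rpe65 and for a Mitf start that holds an OTX core, in the direction of the gene, with matches to these motifs in capitals. They lie at chr7:87493513-87493762 (minus strand), chr4:80833963-80834212 (plus), chr14:118052247-118052496 (minus), chr3:159598931-159599180 (plus) and chr6:97929567-97929816 (plus).
Tyr: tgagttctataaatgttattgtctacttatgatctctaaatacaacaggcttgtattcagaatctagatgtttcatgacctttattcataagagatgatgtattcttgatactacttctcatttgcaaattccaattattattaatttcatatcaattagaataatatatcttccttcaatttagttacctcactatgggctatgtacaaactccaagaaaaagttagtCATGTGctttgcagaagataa
Tyrp1: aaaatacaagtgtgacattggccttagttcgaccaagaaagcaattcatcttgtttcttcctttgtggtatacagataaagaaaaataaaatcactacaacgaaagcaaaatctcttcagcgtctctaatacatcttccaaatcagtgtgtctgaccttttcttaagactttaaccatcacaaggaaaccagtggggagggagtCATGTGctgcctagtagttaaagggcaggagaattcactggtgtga
Dct: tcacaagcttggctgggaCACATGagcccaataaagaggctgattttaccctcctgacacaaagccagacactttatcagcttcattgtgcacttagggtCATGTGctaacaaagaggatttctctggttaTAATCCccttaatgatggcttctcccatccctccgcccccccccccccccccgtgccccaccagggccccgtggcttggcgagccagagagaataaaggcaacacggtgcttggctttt
Rpe65: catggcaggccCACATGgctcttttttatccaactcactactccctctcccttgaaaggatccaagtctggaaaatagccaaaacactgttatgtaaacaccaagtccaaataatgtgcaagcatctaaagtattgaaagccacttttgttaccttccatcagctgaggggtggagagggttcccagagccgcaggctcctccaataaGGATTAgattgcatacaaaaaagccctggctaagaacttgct
Mitf, second of 3 starts: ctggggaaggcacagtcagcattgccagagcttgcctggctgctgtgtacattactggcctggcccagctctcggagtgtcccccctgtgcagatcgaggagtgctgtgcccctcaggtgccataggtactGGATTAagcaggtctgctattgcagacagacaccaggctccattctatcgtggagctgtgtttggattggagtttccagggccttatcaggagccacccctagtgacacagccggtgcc

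In Tyr, which encodes the enzyme of the first step of melanin synthesis, the CATGTG match began at position -21 from the start. In Tyrp1 it began at -46. Dct held 1 match on each strand, at -232 and -150, and an OTX core at -119. Rpe65, the isomerase of the visual cycle, held an E-box at -239 and an OTX core at -42. The Mitf window had its OTX core at -119. Of the factors themselves, 5 of 7 had a window, and those without one were Sox9 and Myrf.

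Pigment genes stood near their control level. Of 12 of 12 listed pigment genes, 0 had an adjusted or an unadjusted p under 0.05 (up to 3 in the alternatives tried), 9 were higher and 3 lower after laser treatment, and the median log2 fold change was 0.15, beside -0.019 for all genes. Tyr had 384 ± 80.9 CPM (n = 6) in naïve control and 345 ± 66.8 CPM (n = 5) in laser treated libraries, a log2 fold change of -0.16 (SE 0.17). Dct, the dopachrome tautomerase, stood at -0.086 (0.29), Tyrp1 at 0.11 (0.36), the melanosome matrix protein Pmel at 0.44 (0.47), and the melanosome transporters Slc45a2, Slc24a5 and Oca2 at 0.20 (0.26), -0.027 (0.15) and 0.10 (0.15). The remaining pigment genes, Mlana, Gpr143, Rab27a, Trpm1 and Gpnmb, had log2 fold changes of 0.0054, 0.20, 0.22, 0.21 and 0.31. Adjusted p-values of these 12 genes ran from 0.433 for Gpr143 to 0.997 for Mlana in edgeR's test. Choroidal melanocytes express the same genes. Summed CPM of the 6 of 8 listed melanocyte markers ran from 181 to 317 in naïve control and from 264 to 380 in laser treated libraries, with Mc1r at 0 counts in 3 libraries and Pax3 in 3, and their part in the pigment gene values was not tested.

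Lysosome and autophagy genes known as targets of Tfeb and its relatives included several with a higher mean at a small unadjusted p. Of 13 of 13 listed genes, 6 had an unadjusted p under 0.05, all higher after laser treatment, and 0 an adjusted p under 0.05, where 15.9% of all genes had an unadjusted p under 0.05. The median log2 fold change was 0.23. The 6 included Flcn at 0.52 (SE 0.17), the protease cathepsin D gene Ctsd at 0.46 (0.14), Hexa at 0.43 (0.15), the lysosomal channel gene Mcoln1 at 0.41 (0.12) and the proton pump subunit gene Atp6v0d1 at 0.33 (0.12). The 2 most abundant of the list were Ctsd, at 6733 ± 1291 CPM (n = 6) and 9291 ± 1245 CPM (n = 5), and Sqstm1, at 467 ± 79.3 and 549 ± 37.2 CPM. Those with the smallest p among the lower genes were Rragd at -0.25 (0.12) and Atp6v1h at -0.17 (0.12). With the trend of counts on GC content removed, the number at an unadjusted p under 0.05 was 1 of 13, beside 7.17% of all genes.

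**Figure D2:**
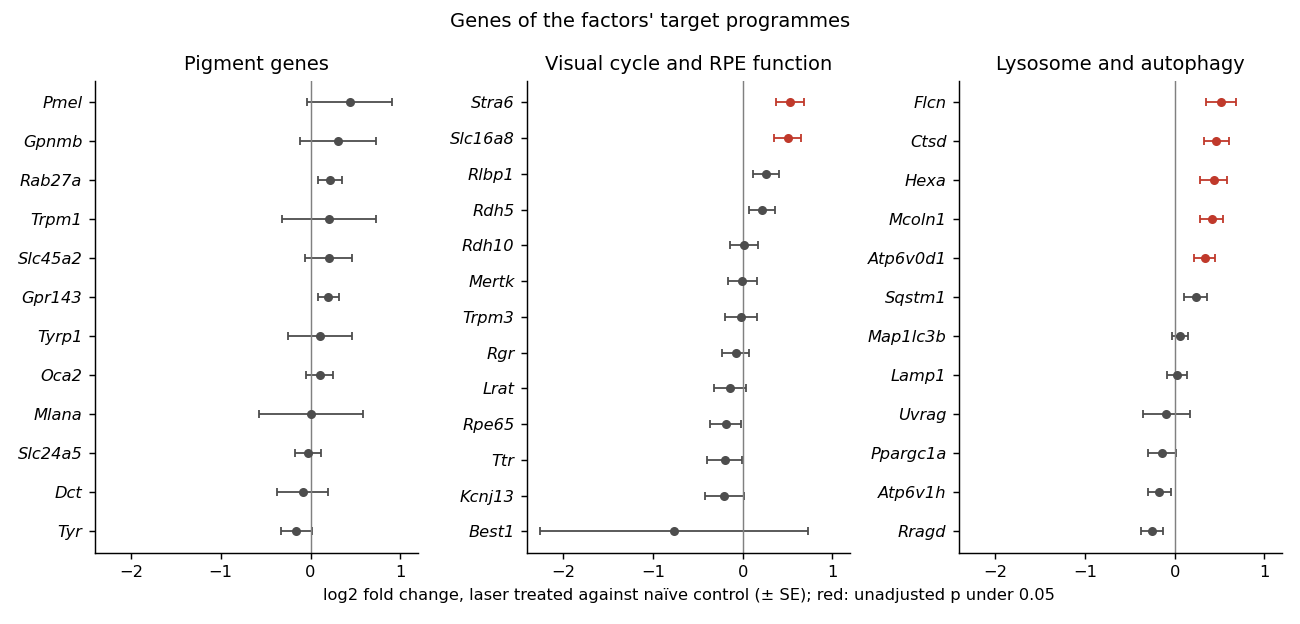
Log2 fold change (horizontal axis, laser treated against naïve control, with its standard error) of genes in 3 lists of target programmes, red where the unadjusted p of edgeR's test was under 0.05. None of 12 pigment genes, 2 of 13 visual cycle and RPE function genes and 5 of the 12 lysosome and autophagy genes drawn are red, all of them to the right of 0.

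Otx2 lies on chromosome 14 (chr14:48657677-48673819, minus strand). Naïve control libraries held 351 CPM at the lowest, 385 at the median and 482 at the highest, and laser treated libraries 1 to 5 held 512, 430.0, 460, 358 and 334 CPM. The groups overlapped across nearly their whole ranges, and laser treated libraries were both the highest and the lowest of the 11. The log2 fold change was 0.071 (SE 0.13, adjusted p = 0.862 from edgeR), and it was -0.012 without laser treated 1. The gene shares part of its span with Otx2os1, which runs the other way and had 986 to 1599 counts, 10.3% of the Otx2 total, and without strand information reads of the shared stretch cannot be told apart. Its homolog Crx, a photoreceptor factor, had 158 ± 99.3 CPM (n = 6) and 106 ± 80.2 CPM (n = 5), with a log2 fold change of -0.57 (SE 0.52), and Otx1 had 4.27 ± 3.72 and 8.11 ± 9.57 CPM.

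Sox9 lies on chromosome 11 (chr11:112782224-112787760, plus strand). Its lowest, median and highest naïve control values were 196, 244 and 308 CPM, and laser treated libraries 1 to 5 held 290.2, 328, 258, 276 and 245 CPM. Naïve control 2 exceeded every laser treated library except number 2. The log2 fold change was 0.20 (SE 0.13, adjusted p = 0.487 from edgeR), and without naïve control 2 the unadjusted p passed below 0.05. Among its relatives, Sox10, a factor of melanocytes and of myelinating glia, had 132 ± 21.4 CPM (n = 6) and 203 ± 43.5 CPM (n = 5), a log2 fold change of 0.62 (SE 0.16, adjusted p = 0.172 from edgeR and 0.0199 from DESeq2). Sox8 had 1.69 ± 1.01 and 0.901 ± 0.582 CPM.

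Lhx2 lies on chromosome 2 (chr2:38339281-38369733, plus strand). Naïve control libraries held 79.2 CPM at the lowest, 90.0 at the median and 136 at the highest, and laser treated libraries 1 to 5 held 98.5, 140.3, 114, 89.1 and 98.8 CPM. Library 2 was the highest in both groups. The log2 fold change was 0.18 (SE 0.16, adjusted p = 0.665 from edgeR), and its sign turned, to -0.074, once the trend of counts on GC content was removed. The relative Lhx6 had under 2 CPM in both group means, and Lhx8, Lhx9, Pax2 and Myrfl were not listed.

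Genes on which Otx2, Sox9 and Lhx2 are known to act were abundant and mostly near their control level. Of 13 of 13 visual cycle and RPE function genes, 2 had an unadjusted p under 0.05, both higher, a share near the 15.9% of all genes, 0 had an adjusted p under 0.05, and the median log2 fold change was -0.016. The count was 0 with the trend of counts on GC content removed and 6 with normalization to the RPE markers, which share most of their genes with this list. The 2 were Stra6, the receptor for retinol-binding protein, at 0.53 (SE 0.16), and the lactate transporter gene Slc16a8 at 0.50 (0.15), with an adjusted p of 0.179 for each from edgeR. Rpe65 had 12600 ± 1944 CPM (n = 6) and 11060 ± 3098 CPM (n = 5), a log2 fold change of -0.19 (0.18). Rlbp1, the retinaldehyde-binding protein gene, stood at 0.26 (0.14), the retinol dehydrogenase gene Rdh5 at 0.21 (0.15), Lrat at -0.14 (0.18), Rgr at -0.078 (0.15) and Rdh10 at 0.014 (0.16). Ttr, the transthyretin gene, stood at -0.20 (0.20), the potassium channel gene Kcnj13 at -0.20 (0.22), Trpm3 at -0.016 (0.18) and the phagocytosis receptor gene Mertk at -0.0021 (0.16). Best1, a chloride channel gene that Otx2, Sox9 and Mitf are known to activate, had only 0 to 102 counts per library, with 0 counts in 2 naïve control libraries and 1 laser treated library, while the other 10 RPE markers were each at a mean of 74.2 CPM or more.

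Pax6 lies on chromosome 2 (chr2:105668900-105697364, plus strand) and was the factor that varied most. Naïve control libraries held 9.46 CPM at the lowest, 37.6 at the median and 86.5 at the highest, and laser treated libraries 1 to 5 held 11.6, 3.97, 29.7, 37.3 and 63.0 CPM. Both groups spread widely, and across the 11 libraries the highest value was 21.8 times the lowest, against 1.53 to 2.11 times for the other 5 factors. The coefficient of variation was 60.3% in naïve control and 79.8% in laser treated libraries, where the other 5 ranged from 11.2% to 23.1%. The log2 fold change was -0.67 (SE 0.63, adjusted p = 0.678 from edgeR). An antisense gene, Pax6os1, overlaps its first bases and had 0 to 160 counts.

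Markers of the retinal cells that express Pax6 varied between libraries. Of 11 of 11 amacrine and ganglion cell markers, 9 were lower and 2 higher after laser treatment, and the median difference was -0.89 on the log2 scale. Their mean log2 CPM was 3.25 ± 1.02 (n = 6) in naïve control and 2.504 ± 0.73 (n = 5) in laser treated libraries. The 1 with an unadjusted p under 0.05, Slc6a9, was higher. Summed CPM ran from 400.3 to 624 in naïve control and from 464 to 732 in laser treated libraries. That sum, higher where the median fold change is lower, is mostly Slc6a9, which the RPE also expresses, and Gad2 was at 0 counts in 1 library of each group. Naïve control 6 and laser treated 1 and 2, the 3 libraries with the least Pax6, had mean marker levels among the lower ones (log2 CPM), though laser treated 5, with 63.0 CPM of Pax6, was low as well. Pax6 and this level had r = 0.58 (permutation p = 0.0649, adjusted 0.468) and rho = 0.48 (permutation p = 0.138, adjusted 0.689) over the 11 libraries, with r = 0.58 without the 2 farthest. With the marker level as a covariate the log2 fold change of Pax6 was -0.13 (SE 0.71), and with that of 7 of 8 ciliary and iris epithelium markers it was -1.41 (0.60, unadjusted p = 0.0368 from edgeR). Summed CPM of the latter list ran from 423 to 2807 in naïve control and from 372 to 785 in laser treated libraries, with Zic1 at 0 counts in 1 laser treated library.

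Myrf, listed as Gm98, lies on chromosome 19 (chr19:10208272-10240748, minus strand). Naïve control libraries held 114 CPM at the lowest, 134 at the median and 163 at the highest, and laser treated libraries 1 to 5 held 212, 241, 199, 211 and 176 CPM. Every laser treated library was above every naïve control library, with the closest pair being laser treated 5 and naïve control 4. Group means were 136 ± 15.9 CPM (n = 6) and 208 ± 23.4 CPM (n = 5), a 1.53-fold difference and a log2 fold change of 0.61 (SE 0.12). The unadjusted p of 0.000116 was the fifth smallest of all 14602 genes, and the adjusted p was 0.172 from edgeR and 0.0021 from DESeq2. An exact two-sided permutation test of the mean log2 CPM gave p = 0.00216, the smallest that 6 against 5 libraries allow, which complete separation gives by construction. In the transcripts assembled from the same reads, the 3′ exon of Myrf (chr19:10208272-10210465) was at 43.8 ± 4.97 TPM, the length-scaled unit of those files (n = 6), in naïve control and 70.7 ± 11.7 TPM (n = 5) in laser treated samples.

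Tmem98, whose membrane protein binds Myrf and restrains its cleavage, was abundant. It had 1969 ± 185 CPM (n = 6) and 2408 ± 369 CPM (n = 5), a log2 fold change of 0.29 (SE 0.12, unadjusted p = 0.0282 and adjusted p = 0.256 from edgeR). The eye size gene Prss56 was low, at 5.87 ± 4.99 and 5.13 ± 2.92 CPM, with 0 counts in 1 naïve control library, and Mfrp and C1qtnf5 were not listed.

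Myelin genes, which Myrf drives in oligodendrocytes, also had higher means in laser treated libraries. Of 8 of 13 listed oligodendrocyte markers, 6 had an unadjusted p under 0.05, all higher, and 0 an adjusted p under 0.05. Of all genes, 15.9% had an unadjusted p under 0.05. Summed CPM ran from 154 to 453 in naïve control and from 314 to 1102 in laser treated libraries. The median log2 fold change was 1.70, and Mag, Mobp and Cldn11 were at 0 counts in at least 1 library. Over the 11 libraries, Gm98 and the oligodendrocyte marker level had r = 0.60 (permutation p = 0.0553, adjusted 0.468) and rho = 0.64 (permutation p = 0.0402, adjusted 0.689), with r = 0.56 without the 2 libraries farthest from the median of the markers. Within naïve control r was 0.88 (n = 6) and within laser treated libraries -0.54 (n = 5). These groups are too small to compare their relations. Naïve control 4 had the most Myrf of its group, 163 CPM, and the largest marker sum, 453 CPM, and naïve control 3 the least of both, 114 and 154 CPM. Among laser treated libraries Myrf was highest in number 2, at 241 CPM, where the marker sum was 349 CPM and Mbp, the myelin basic protein gene, was at 30.1 CPM. Laser treated 1 and 5, with Mbp at 566 and 440.1 CPM, had 212 and 176 CPM of Myrf. With the level of the oligodendrocyte list as a covariate, the log2 fold change of Gm98 was 0.58 (SE 0.14, adjusted p = 0.257 from edgeR). Summed CPM of Schwann cell markers, 7 of 10 listed, ran from 398 to 684 in naïve control and 601 to 1328 after laser treatment. Prx and Scn7a were at 0 counts in 2 libraries each. Of the 7 Schwann cell markers, 3 had an unadjusted p under 0.05, all higher, beside 15.9% of all genes. Their level and Gm98 had r = 0.67 (permutation p = 0.0246, adjusted 0.468) and rho = 0.55 (permutation p = 0.0809, adjusted 0.689), with r = 0.45 without the 2 farthest libraries. Within naïve control r was 0.41 (n = 6) and within laser treated libraries 0.19 (n = 5). Relations over all 11 libraries include the difference between the groups. The part of these cells in the Gm98 difference was not tested beyond that covariate.

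**Figure D3:**
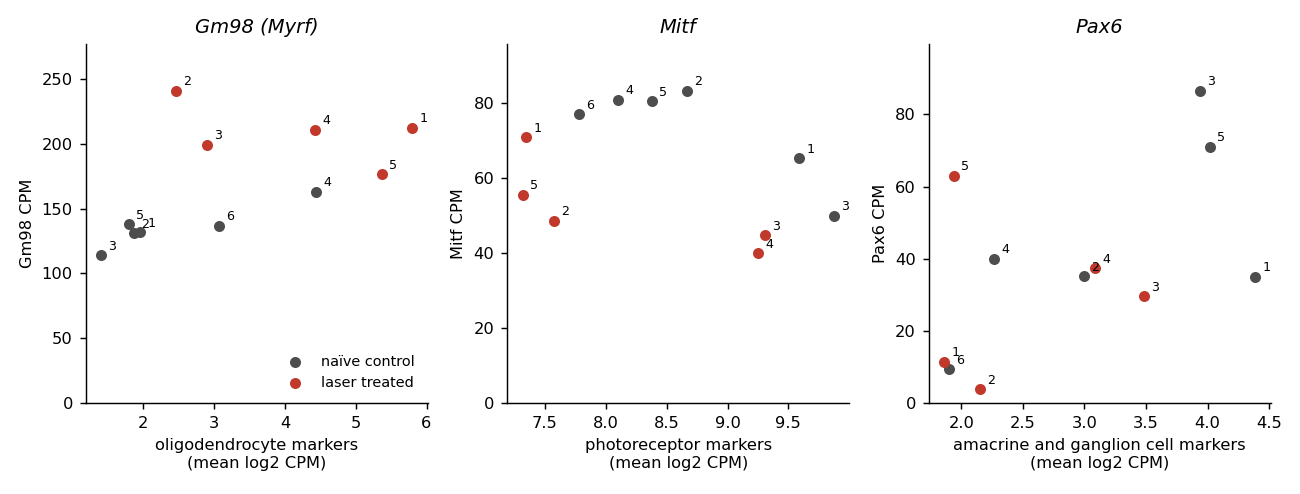
CPM of Gm98, Mitf and Pax6 (vertical axes, linear from 0) against the mean log2 CPM of oligodendrocyte, photoreceptor and amacrine and ganglion cell markers (horizontal axes) in naïve control (grey) and laser treated (red) libraries, numbered by replicate. Among naïve control libraries number 4 has the most Gm98 and the highest oligodendrocyte marker level, whereas laser treated 2 has the most Gm98, at 241 CPM, and the lowest marker level of its group. The 3 libraries with the least Pax6 have 3.97 to 11.6 CPM.

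Across 90 relations between the 6 factors and 15 marker lists, none had an adjusted p under 0.05. The strongest was between Otx2 and the melanocyte marker level, with Pearson's r = -0.84 (permutation p = 0.0013, adjusted 0.117) and Spearman's rho = -0.78 (permutation p = 0.00637, adjusted 0.573) over 11 libraries, and r = -0.78 without the 2 libraries farthest from the median of the markers. Otx2 and the RPE marker level had r = 0.75 (permutation p = 0.00698, adjusted 0.314) and rho = 0.73 (permutation p = 0.0142, adjusted 0.64), with r = 0.43 without the 2 farthest libraries.

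The GC content of the transcripts moved with the fold changes of all genes, and both factors with a small unadjusted p lay on the side to which their GC content belongs. The 2875 genes with 55 to 60% GC, a range that holds Gm98 (57.6%) and Lhx2 (58.5%), had a median log2 fold change of 0.28, and 74.8% of them were higher after laser treatment. The 2571 genes with 40 to 45% GC, a range that holds Mitf (43.4%), had a median of -0.30, and 19.2% were higher. Once a trend of counts on GC content was removed from each library, the log2 fold change of Gm98 was 0.40 (SE 0.14) and that of Mitf -0.21 (0.20), with adjusted p-values of 0.681 and 0.861 from edgeR. Under the same correction Otx2, Sox9 and Pax6, all between 45 and 50% GC, stood at 0.23 (0.17), 0.26 (0.17) and -0.64 (0.60), and Tfeb, at 63.2% GC, at 0.63 (0.19).

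**Figure D4:**
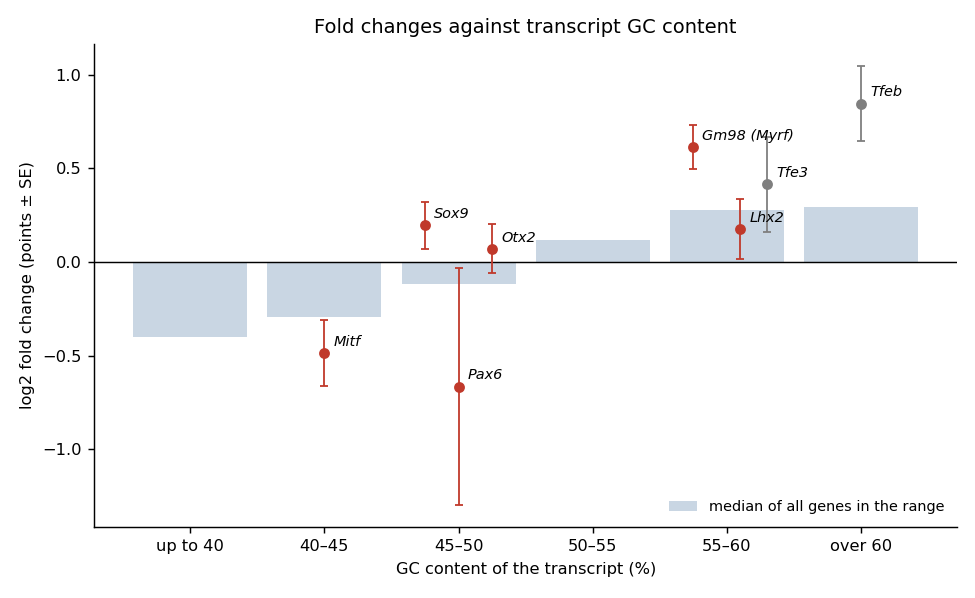
Log2 fold change (vertical axis, points with standard error) of the 6 factors (red) and of Tfeb and Tfe3 (grey) placed in the range of transcript GC content (horizontal axis) to which each belongs, over bars for the median of all genes in that range. The bars run from -0.40 below 40% GC to 0.29 above 60%, and Gm98 and Mitf lie beyond the bars of their ranges in the same direction as those bars.

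**Figure D5:**
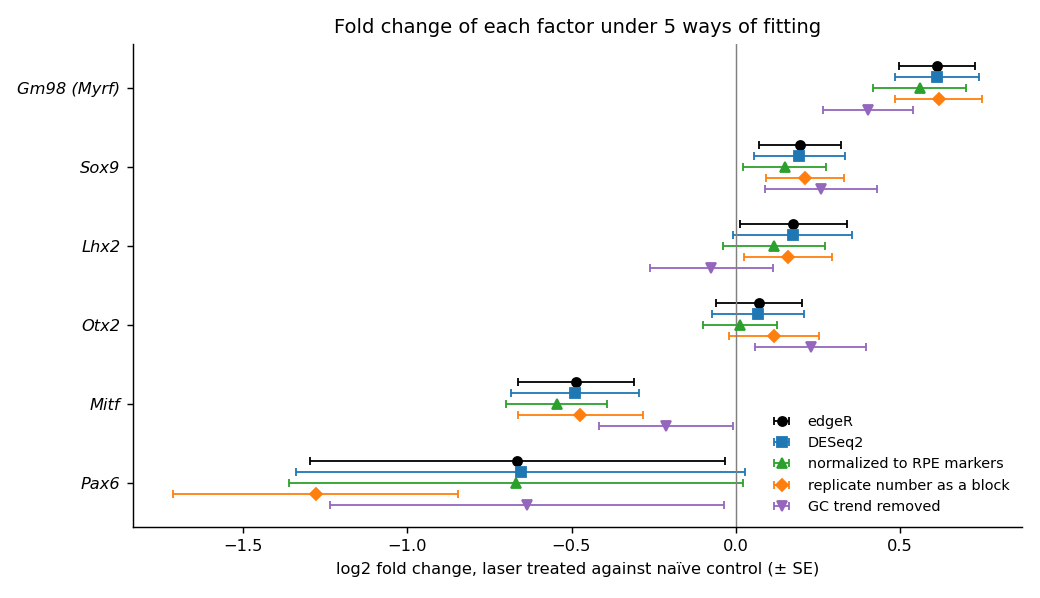
Log2 fold change (horizontal axis, laser treated against naïve control, bars are standard errors) of the 6 factors under edgeR, DESeq2, normalization to RPE markers, a block for the replicate number and removal of the GC trend. Gm98 stays to the right of 0 and Mitf and Pax6 to the left under all 5, and the GC correction takes Lhx2 across 0.

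The deposited transcript files carry a label, R1 or R2, whose meaning was not given in the sources used here. Within R1, 3 naïve control and 2 laser treated libraries, the difference in mean log2 CPM was 0.85 for Gm98, and within R2, 3 against 3, it was 0.42. For Mitf it was -0.14 within R1 and -0.78 within R2. Sox9 was at 0.38 and 0.077, Lhx2 at 0.29 and 0.12, Otx2 at 0.28 and -0.094, and Pax6 at -2.79 and 0.46. Gm98, Mitf, Sox9 and Lhx2 thus kept their direction within both labels, and Otx2 and Pax6 did not.

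The ratio of Gm98 to Mitf CPM, looked at after their values were seen, ran from 1.57 to 2.28 in naïve control libraries and from 2.99 to 5.26 in laser treated libraries. The ranges did not overlap, but Gm98 alone already separated the groups, so the ratio is no further support. The 14.2 percentage points of GC content between the transcripts apply to the ratio as well.

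Other regulators of RPE fate, among them the Wnt and Hippo pathway genes that act upstream of Mitf and Otx2, stayed near their control level. Of 16 of 17 listed genes, 1 had an unadjusted p under 0.05, 0 an adjusted p under 0.05, 8 were higher and 8 lower, and the median log2 fold change was 0.0064. The former was Gsk3b, the kinase that marks beta-catenin for degradation, at -0.33 (SE 0.15). The smallest p among the higher genes belonged to Wwtr1, the Hippo effector TAZ, at 0.26 (0.18), and the most abundant were Ctnnb1, which encodes beta-catenin, at 441 ± 42.2 and 448 ± 16.9 CPM, and Gsk3b, at 138 ± 28.6 and 109 ± 9.28 CPM. Of 10 of 13 neural retina fate factors, 0 had an unadjusted p under 0.05, 3 were higher and 7 lower, and the median was -0.31. Among them Nrl, a rod photoreceptor factor, stood at -0.78 (SE 0.49) and Nr2e3, which acts with it, at -0.17 (0.50).

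The genes whose log2 CPM followed each factor most closely over the 11 libraries, among 13702 genes with a mean of at least 1 CPM, are given by Pearson's r as a description. For Gm98 they were Zfp513 (r = 0.95), the histone deacetylase gene Hdac1 (0.94) and Fkbp8 (0.94). For Mitf they were Mospd1 (0.92), Id2 (0.91) and Pdcd6 (0.91), for Otx2 Fbxl19 (0.91) and Pafah2 (0.87), and for Sox9 Ube2h (0.94), Pla2g6 (0.93) and Fbxo27 (0.93). For Pax6 they were Chrdl1 (0.93), Adamts5 (0.93) and Ankrd29 (0.92), and for Lhx2 Wbscr27 (0.89), Snx32 (0.89) and Tor2a (0.89). The libraries share depth, GC trend and admixed cells across all these genes.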

How the data were processed

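RPE/choroidal RNA was pre-amplified with a SmartSeq v4 kit and libraries were made with Nextera XT, which does not mark strand. Per the labels and the submitters' processing notes, which name bcl2fastq 2.18.0.12, Trim Galore, STAR 2.5.3a, featureCounts 1.5.3, StringTie 1.3.3 and edgeR 3.22.3 and the build mm10 (GRCm38), the authors deposited 1 table of raw counts per gene for 11 samples. Its other columns hold the authors' own comparison (a log2 fold change, log2 CPM, an F score, p-values and FDR) and were not used. The authors also deposited 1 file of assembled transcripts per sample, with coverage, FPKM and TPM. Every segment in them has 1 exon, and many short exons of the members were covered in few or none of the samples.

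Groups and replicate numbers came from the labels. Counts were tested with edgeR 4.0.16 (TMM, robust quasi-likelihood test, filterByExpr, which removed no gene, Benjamini-Hochberg adjustment over all 14602 genes), with DESeq2 1.42.0 and limma 3.58.1 as alternatives in R 4.3.3. RPKM was computed from CPM and GENCODE M21 transcript length, which was found for all members. Log2 CPM used a prior count of 2. Marker relations used 100000 permutations. Precision is limited by the spread between samples rather than depth. The common biological coefficient of variation, a single value over all genes, was 0.58. Apart from Pax6 (60.3% and 79.8%), the factors had coefficients of variation of 11.2% to 23.1% within a group. The fits across genes were tested on simulated data.

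The members, lists and tests were chosen with earlier results of these data known. The genes named were all members, all genes of the Mitf family, paralog, pigment, visual cycle and Myrf partner lists, up to 2 genes per direction by smallest p and the 2 most abundant of other lists, and the 3 genes most correlated with each member; others were named after their values were seen, and some that these choices cover are not reported here. Same-numbered samples were not taken as pairs. Alternatives were other normalizations, filters and tests, GC and length corrections, a replicate block, the file label, TPM values and each library left out; covariates of 4 marker lists and the joint removal of 2 libraries were added after seeing the data. For normalization to RPE markers Best1 was left out because of its 0 counts.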

Additional observations from a re-analysis of the deposited data

Results flagged for a closer look

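Among 60 groups of values tested for 1 library apart from the rest of its group, 3 had such a library, where chance gives about 1 in 20. Lhx2 in naïve control 2 was at 136 CPM, with the other 5 naïve control libraries at 79.2 to 96.7 CPM. Without that library the log2 fold change of Lhx2 was 0.30. The mean of Tmem98 and Prss56 in naïve control 4 was 3.41 log2 CPM, with the others at 6.33 to 7.32, since Prss56 had 0 counts there. The mean of the melanocyte markers in naïve control 4 was 3.73 log2 CPM, with the others at 2.75 to 3.10. That library also had the highest Gm98 value of its group, 163 CPM, and the largest sum of ciliary and iris epithelium markers, 2807 CPM. What sets it apart was not tested.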

How the results depend on the processing

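No member had an adjusted p under 0.05 in edgeR under any other normalization, filter, correction or covariate, or without any 1 library. The number called was 1 instead of 0 with DESeq2 (Gm98, log2 fold change 0.61, adjusted p = 0.0021) and 1 without naïve control 6 and laser treated 5 together (Gm98, 0.67, adjusted p = 0.0295 from edgeR), and 0 whichever single library was left out. The number at an unadjusted p under 0.05 was 1 instead of 2 with the GC trend removed and 1 with TPM values at either pseudocount, and 2 to 4 with 1 library left out, 4 being without naïve control 2, when Lhx2 and Sox9 joined. The number of higher members was 3 or 4 throughout. Gm98 kept its direction in all 30 alternatives, from 0.39 to 0.78, with 0.55 to 0.67 over single libraries left out, as did Mitf, from -0.72 to -0.13 and -0.62 to -0.42, Sox9, from 0.12 to 0.29, and Pax6, from -1.41 to -0.13. Otx2 turned to -0.012 without laser treated 1, in a range up to 0.14 without laser treated 5. Lhx2 turned to -0.074 with the GC trend removed and to -0.095 with that and the block. For Pax6 the range over single libraries left out was -1.16 to -0.38. Same-numbered samples deviated together only in part (correlations from -0.0094 to 0.28), which cannot decide whether the numbers pair the samples. With the replicate number as a block, 0 members were called. The log2 fold change was then 0.62 for Gm98, -0.47 for Mitf and -1.28 for Pax6 (unadjusted p = 0.0174 from edgeR). Of the target lists, the number of pigment genes at an unadjusted p under 0.05 was 2 with the block, 1 with the GC trend removed, 3 with both, 1 with the amacrine or the photoreceptor covariate, 1 without naïve control 6, without laser treated 4 or without laser treated 5, and 1 without naïve control 6 and laser treated 5 together, and 0 in the other 21 alternatives. That of lysosome and autophagy genes was 1 with the GC trend removed, 2 with that and the block, 3 with TPM values at either pseudocount and 6 to 8 in the others. That of visual cycle genes ran from 0 to 6, with 2 to 3 over single libraries left out. That of other fate regulators was 0 instead of 1 in 17 of 30 alternatives. The causes were not tested. The spread between samples, not depth, limits these values.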

Other observations

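An assembled segment inside the Mitf gene but outside its annotated exons was present in all 11 samples. Only segments that the assembly gave to the plus strand were looked at, and the libraries themselves do not mark strand. The segment lay at chr6:97939678-97940661 in the stretch shared by all samples, 255 to 256 bases before the annotated exon block at chr6:97940918-97942179. Its level was 26.1 ± 4.36 TPM (SD, n = 6) in naïve control and 20.8 ± 7.34 TPM (SD, n = 5) in laser treated samples, with overlapping ranges of 19.7 to 31.6 and 11.2 to 29.7 TPM (exact two-sided permutation test, p = 0.16). In 10 of 11 samples it exceeded the level of the last Mitf exon (chr6:98017774-98021349), by up to 3.23 times.

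The first against the last exon block present in all samples was compared between the groups for 6 members, a comparison chosen after these values were seen, and Lhx2 alone had an adjusted p under 0.05, with ranges that overlapped. In Lhx2 the ratio ran from 0.033 to 0.0692 in naïve control and from 0.0678 to 0.142 in laser treated samples (exact two-sided permutation test, p = 0.00649, adjusted over the 6 genes 0.039). In Sox9 it ran from 0.673 to 1.34 and from 1.19 to 1.92 (exact permutation p = 0.026, adjusted 0.0779). The first exon block of Sox9 was at 51.3 ± 11.3 and 80.3 ± 18.3 TPM and its last block at 51.7 ± 11.3 and 57.0 ± 15.3 TPM (SD, n = 6 and n = 5). For Myrf, Mitf, Otx2 and Pax6 the exact permutation p-values were 0.933, 0.667, 0.784 and 0.74. Neither GC content nor the evenness of coverage along a transcript was corrected for in these ratios. The cause of the differences was not tested.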
